A study of Mus musculus with 8 samples.

Results

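Megalin and cubilin are the receptors by which the kidney recovers filtered proteins. The 6 genes described here encode the receptors (Lrp2, megalin; Cubn, cubilin), the membrane partner of cubilin (Amn, amnionless), the adaptor that couples the receptors to clathrin (Dab2), the chloride/proton exchanger of the endosomes they enter (Clcn5) and an inositol 5-phosphatase that acts on the same endosomes (Ocrl). They were taken by symbol from a table of 55304 rows; all 6 symbols were present, and all 6 were among the 17440 genes that passed the filter on low counts.

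RNA was sequenced from mouse kidney cells positive for the lectin DBA, from Dolichos biflorus, with which cells of the collecting duct are enriched, per the sample labels. The extraction protocol speaks of isolated DBA-positive cells but also says that the RNA taken into library preparation was from whole kidney, so the source of the RNA, and with it the share of tubule cells that the levels below refer to, is uncertain. There were 8 libraries in 4 groups of 2: wild type (WT) with vehicle, WT with 666-15, ADPKD with vehicle and ADPKD with 666-15, where ADPKD is a mouse model of autosomal dominant polycystic kidney disease and 666-15 an inhibitor of the transcription factor CREB. Vehicle is labelled DMSO. The inhibitor was given at 5 mg/kg once a day in cycles of 5 days of dosing and 2 days of rest, from postnatal day 11 for 3 weeks. The labels name no allele, promoter or strain for the ADPKD mice and do not state whether libraries of the same group are from different animals. The 2 libraries of WT with 666-15 differed in sex, as given below, and so were not both from 1 animal. The p-values measure the spread between these libraries, which may be technical in the remaining groups. Total counts were 15108793 to 19702638 per library. WT with 666-15 replicate 2 stood apart by sex, with 17688 counts of Xist and 0 of Ddx3y, against at most 8 of Xist and at least 1776 of Ddx3y in the other 7 libraries. The comparisons of WT cells with 666-15, the interaction included, are therefore unbalanced for sex. This may bear on all the genes described here and on the marker sums, not only on Clcn5 and Ocrl, both on chromosome X.

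In the proximal tubule, the segment that handles most of the filtrate, megalin and cubilin sit at the apical membrane and bind albumin, vitamin-binding proteins, hormones and drugs. Cubilin has no membrane span of its own and reaches the surface only together with amnionless. DAB2 binds the cytoplasmic tail of megalin and recruits the clathrin machinery, CLC-5 works in endosomes that acidify so that ligand and receptor part, and OCRL removes the 5-phosphate of the lipid that marks the plasma membrane so that receptors can recycle. In humans, loss of CLCN5 causes Dent disease, loss of OCRL causes Lowe syndrome or a milder Dent disease, and loss of CUBN or AMN causes Imerslund-Grasbeck syndrome, all with loss of small proteins in urine or of vitamin B12 uptake. Lrp2, Cubn and Amn are textbook genes of the proximal tubule and not of the collecting duct, whereas Ocrl is expressed broadly.

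In GRCm38, Lrp2 (ENSMUSG00000027070.14) spans chr2:69424340-69586065 on the minus strand and Cubn (ENSMUSG00000026726.10) chr2:13276338-13491813, also minus. Amn (ENSMUSG00000021278.7) is at chr12:111271095-111276426 and Dab2 (ENSMUSG00000022150.16) at chr15:6299788-6440712, both plus. Clcn5 (ENSMUSG00000004317.14) is at chrX:7153810-7319358, minus, and Ocrl (ENSMUSG00000001173.15) at chrX:47912387-47965868, plus. Their longest transcripts differ widely, from 1701 bases with 62.9% GC in Amn to 15460 bases with 49.1% GC in Lrp2. Noncoding genes on the opposite strand overlap Cubn (Gm13270), Dab2 (Gm16311 and the pseudogene Gm18888) and Clcn5 (the snoRNA Gm26401). Clcn5 also holds miRNA genes on its own strand. The sources used here do not say whether the counting used strand.

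The promoters of the receptor genes and, for contrast, of Ocrl are shown because the inhibitor is directed at a transcription factor with a known DNA element (RefSeq, GRCm38.p6; 5′ to 3′ on the strand of the gene). The stretches end before the annotated gene: Lrp2 at chr2:69586066-69586279, Cubn at chr2:13491877-13492126, Amn at chr12:111270846-111271094 and Ocrl at chrX:47912206-47912386. Capitals mark letters that match the HNF4 site CAAAGTCCA with at most 1 mismatch on either strand.
Lrp2: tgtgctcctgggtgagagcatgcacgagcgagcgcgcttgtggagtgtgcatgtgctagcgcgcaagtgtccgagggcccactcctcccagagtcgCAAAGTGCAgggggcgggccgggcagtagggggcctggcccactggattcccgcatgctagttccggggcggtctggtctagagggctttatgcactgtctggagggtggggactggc
Cubn: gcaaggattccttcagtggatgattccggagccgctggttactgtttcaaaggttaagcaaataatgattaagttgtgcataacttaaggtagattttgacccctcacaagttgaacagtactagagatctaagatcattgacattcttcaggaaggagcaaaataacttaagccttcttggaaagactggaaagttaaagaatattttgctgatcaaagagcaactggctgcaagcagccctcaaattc
Amn: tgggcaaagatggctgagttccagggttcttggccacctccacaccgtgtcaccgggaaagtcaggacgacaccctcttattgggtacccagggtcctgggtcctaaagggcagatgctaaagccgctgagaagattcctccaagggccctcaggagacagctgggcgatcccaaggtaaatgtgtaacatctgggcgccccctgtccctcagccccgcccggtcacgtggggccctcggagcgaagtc
Ocrl: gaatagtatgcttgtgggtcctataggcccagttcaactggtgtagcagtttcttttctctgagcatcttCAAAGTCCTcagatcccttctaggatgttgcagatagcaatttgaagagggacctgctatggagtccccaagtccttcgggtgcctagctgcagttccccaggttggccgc

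All 6 genes matched the promoter table, with 8 annotated starts (2 each for Dab2 and Clcn5). In the 250 bases before the start, none of the 8 held the cAMP response element TGACGTCA, which is present in 1.55% of 32851 promoters, and none held its half-site TGACG on either strand, which is present in 17.8% and which every full element contains. None held the palindromic HNF1 site with up to 2 mismatches (1.24% of promoters). The HNF4 letters were found in the promoters of Lrp2 and Ocrl and at 1 of the 2 starts of Dab2, against 7.05% of all promoters. The same Dab2 start also held GTTAAT, the half-site of HNF1, found in 6.43%. These matches describe letters in a short window and do not show binding.

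Across the 4 groups, 5 of the 6 genes were highest in WT cells with vehicle, and Ocrl alone was highest in ADPKD cells with 666-15. Levels are CPM, counts scaled to library size by TMM.

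**Figure D1:**
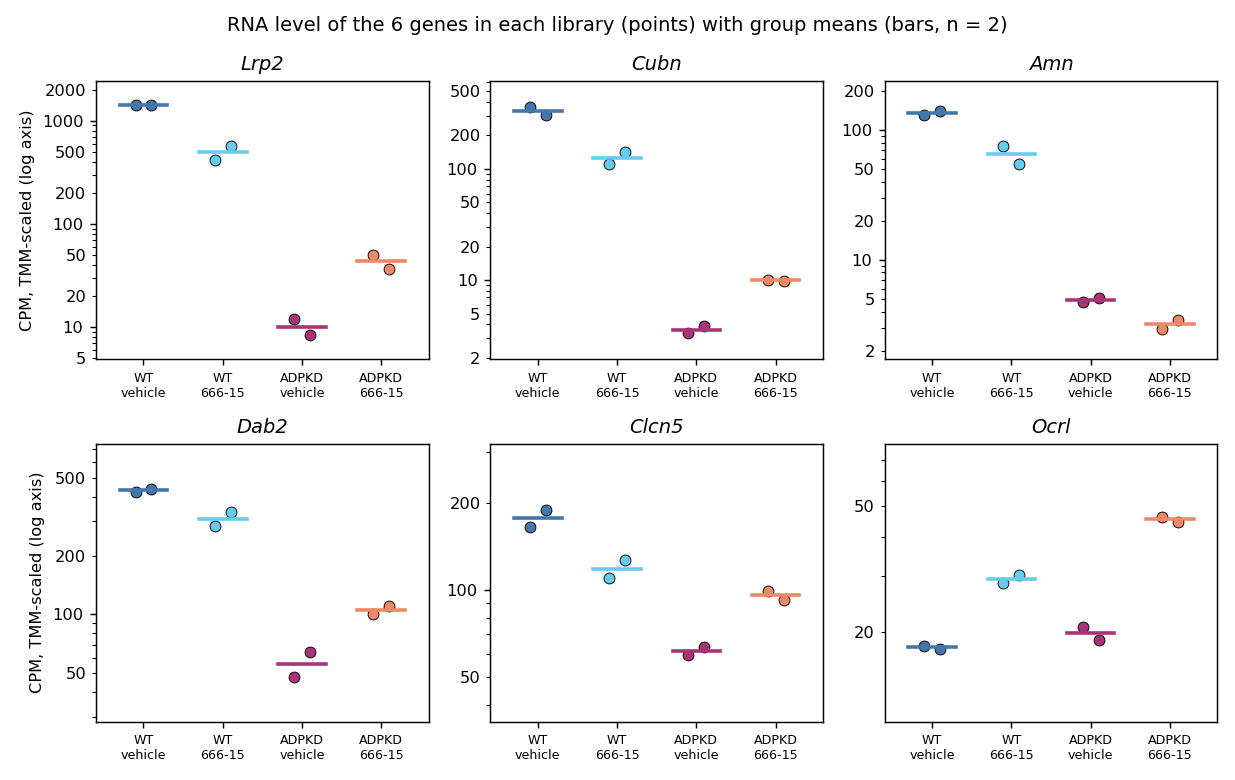
CPM of each gene (log axis) in the 2 libraries (points) of each group, with the group mean (bar). Lrp2 runs from 1420 CPM in WT cells with vehicle to 10.1 CPM in ADPKD cells with vehicle, while Ocrl stays between 17.7 and 46.3 CPM in all 8 libraries.

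Lrp2, a giant receptor of the LDL receptor family, was at 1415 and 1425 CPM in WT cells with vehicle, 419.2 and 573.3 CPM in WT cells with 666-15, 11.9 and 8.36 CPM in ADPKD cells with vehicle and 50.05 and 37.0 CPM in ADPKD cells with 666-15. Cubn was at 362.3 and 302.2 CPM, 110.5 and 141.8 CPM, 3.32 and 3.85 CPM, and 10.1 and 9.84 CPM in the same order. For both receptors the 4 groups kept the same order and no group overlapped another. The share of all genes tested without such overlap was not computed. Amn was at 131.5 and 140.0 CPM in WT cells with vehicle, 75.7 and 55.2 CPM in WT cells with 666-15, 4.77 and 5.10 CPM in ADPKD cells with vehicle and 2.93 and 3.46 CPM in ADPKD cells with 666-15. Amn thus differed from the receptors in the order of the ADPKD groups, with its lowest level in the treated ADPKD cells. That order turned once the GC trend was removed, as given below. The values for Amn and Cubn in ADPKD cells rest on 45 to 155 counts per library.

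Dab2 was at 422.9 and 438.9 CPM in WT cells with vehicle, 283.3 and 333.3 CPM in WT cells with 666-15, 48.1 and 64.1 CPM in ADPKD cells with vehicle and 101.1 and 110.5 CPM in ADPKD cells with 666-15. Clcn5 was at 165.1 and 188.2 CPM, 109.7 and 126.3 CPM, 59.3 and 63.1 CPM, and 98.9 and 92.3 CPM in the same order. Both followed the order of the receptors over a much narrower range. Ocrl was at 18.1 and 17.7 CPM in WT cells with vehicle, 28.7 and 30.2 CPM in WT cells with 666-15, 20.8 and 18.9 CPM in ADPKD cells with vehicle and 46.3 and 44.7 CPM in ADPKD cells with 666-15, so that the vehicle groups lay side by side and both treated groups lay above them.

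Per length of the longest transcript (RPKM), Dab2 (92.4 ± 2.4, SD, n = 2), Lrp2 (91.9 ± 0.47) and Amn (79.8 ± 3.6) were the 3 highest of these genes in WT cells with vehicle. Cubn followed at 29.5 ± 3.8 RPKM, Clcn5 at 21.1 ± 2.0 and Ocrl at 3.41 ± 0.048. Dab2 and Lrp2 did not differ beyond their spread. In ADPKD cells with vehicle the order of RPKM was Dab2 (12.0 ± 2.4), Clcn5 (7.29 ± 0.32), Ocrl (3.77 ± 0.25), Amn (2.90 ± 0.14), Lrp2 (0.655 ± 0.16) and Cubn (0.319 ± 0.034). Lrp2 and Cubn were thus the least abundant of the 6 per length in ADPKD cells with vehicle.

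The effect of genotype was read first with vehicle. In ADPKD cells 5 of the 6 genes were lower at an edgeR adjusted p below 0.05 and 0 higher, while 27.6% of all genes tested were lower, 28.8% higher and 56.4% either. Lrp2 was at 10.1 ± 2.5 CPM against 1420 ± 7.2 CPM in WT cells (SD, n = 2), a log2 fold change of -7.13 ± 0.26 (SE; adjusted p = 3.72e-08). Cubn was at 3.59 ± 0.38 against 332.3 ± 42 CPM (-6.53 ± 0.18, adjusted p = 2.48e-11). Only 159 of the 17440 genes tested had a lower fold change than Lrp2, and 226 a lower one than Cubn. Amn, the partner of cubilin, fell by 4.78 on the log2 scale (SE 0.18, adjusted p = 2.57e-10).

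The intracellular genes moved less. Dab2 was at 56.1 ± 11 against 430.9 ± 11 CPM (log2 fold change -2.94 ± 0.14, edgeR adjusted p = 3.74e-09) and Clcn5 at 61.2 ± 2.7 against 176.7 ± 16 CPM (-1.53 ± 0.11, adjusted p = 1.17e-07). Ocrl did not pass, at 19.8 ± 1.3 against 17.9 ± 0.25 CPM (0.15 ± 0.13, adjusted p = 0.364). The median log2 fold change of the 6 genes was -3.86, against 0.053 over all genes tested.

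The proximal tubule markers moved with these genes. The 24 markers, none of them among the 6 genes, held 2.07% to 2.39% of all counts in WT cells with vehicle and 0.0198% to 0.0274% in ADPKD cells with vehicle, and 24 of 24 were lower. They were at 0 counts in no WT library, and 2 of the 24 were at 0 in ADPKD with vehicle replicate 1. In WT cells with vehicle they held more of the counts than the 12 principal cell markers that the lectin should enrich (0.151% to 0.195%). The uncertain source of the RNA bears on this share. In ADPKD cells with vehicle the principal cell markers held 0.196% to 0.240%, with 7 of 11 tested higher and 2 lower. Fewer were higher in some fits with 1 library left out. Intercalated cell markers went from 0.120% to 0.128% in WT to 0.0374% to 0.0386% in ADPKD cells with vehicle, with 10 of 12 lower and 0 higher. In such bulk samples fewer cells of a type and less RNA per cell cannot be told apart. Macrophage markers, of a cell type that also uses Dab2, summed to 0.0136% to 0.0169% of counts in WT and 0.0355% to 0.0419% in ADPKD cells with vehicle. Of these 12 markers 9 were higher, 1 was lower (Csf1r, -1.15 ± 0.21) and 2 did not pass. Stromal markers summed to 0.0178% to 0.0224% and 0.0366% to 0.0636% in the same order. The part of macrophages and stromal cells in the level of Dab2 was not tested. Markers of the thick ascending limb went from 0.681% to 0.690% of counts in WT to 0.0343% to 0.0349% in ADPKD cells with vehicle and those of podocytes from 0.0979% to 0.100% to 0.0302% to 0.0318%, and those of the endothelium from 0.154% to 0.175% to 0.120% to 0.147%, with 2 of 10 lower and 1 higher (0 lower without ADPKD vehicle replicate 1, 5 lower without either one of the WT inhibitor libraries).

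**Figure D2:**
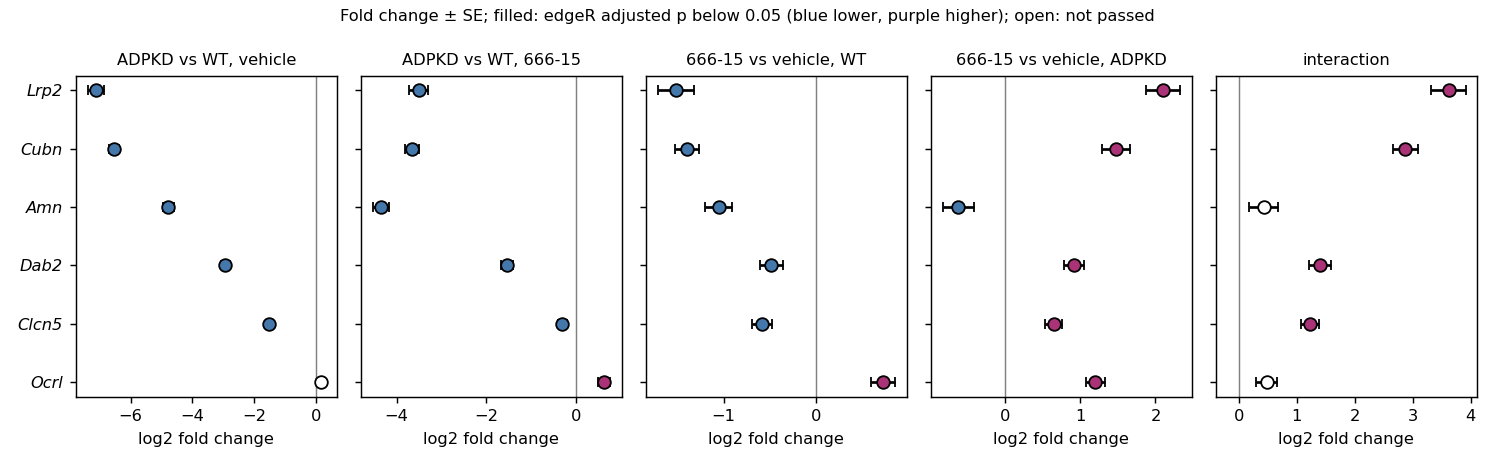
Log2 fold change (point) with its SE (bar) of the 6 genes in 5 comparisons; each panel has its own axis. With vehicle the fall in ADPKD cells is largest for Lrp2 (-7.13) and, among the 5 genes that passed, smallest for Clcn5 (-1.53). With 666-15 in ADPKD cells Amn is the gene that lies on the opposite side (-0.63), a direction that turned once the GC trend was removed.

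The inhibitor in ADPKD cells was compared with vehicle in the same genotype. All 6 genes passed, as did 41.4% of all genes tested: 5 rose, against 22.3% of all genes tested, and Amn was lower, against 19.1%. Lrp2 rose from 10.1 ± 2.5 to 43.5 ± 9.2 CPM (log2 fold change 2.1 ± 0.22, edgeR adjusted p = 1.35e-04), a 4.29-fold rise. It stayed 32.6-fold below WT cells with vehicle (-5.03 ± 0.23, edgeR adjusted p = 1.96e-07), a comparison in which 26.7% of all genes tested were lower, 28.6% higher and 55.3% either, and all 6 genes passed. Cubn rose from 3.59 ± 0.38 to 9.96 ± 0.17 CPM (1.47 ± 0.18, adjusted p = 5.34e-05) and likewise stayed below WT cells with vehicle (-5.06 ± 0.16, adjusted p = 1.67e-10).

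Dab2 rose in ADPKD cells to 105.8 ± 6.6 CPM (0.92 ± 0.13, edgeR adjusted p = 2.02e-04) and Clcn5 to 95.6 ± 4.6 CPM (0.64 ± 0.11, adjusted p = 5.65e-04). Ocrl rose from 19.8 ± 1.3 to 45.5 ± 1.1 CPM (1.20 ± 0.13, adjusted p = 2.13e-05), which was above WT cells with vehicle (1.35 ± 0.13, adjusted p = 1.93e-06). Amn was lower, at 3.20 ± 0.38 against 4.94 ± 0.23 CPM (-0.63 ± 0.21, adjusted p = 0.028). The call of Amn ended when any 1 of the 4 ADPKD libraries was left out (-0.74 to -0.49, adjusted p of 0.0594 to 0.189), and once each library was corrected for its GC trend the difference was 0.15 with an adjusted p of 0.525; Amn has the most GC-rich transcript of the 6. Its 2 libraries with each treatment did not overlap before that correction. The share of all genes tested without such overlap was not computed, so this separation is a description only.

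Proximal tubule markers rose with the receptors, from 0.0198% to 0.0274% of counts with vehicle to 0.0643% to 0.0682% with 666-15, with 17 of 24 higher and 2 lower. Macrophage markers were at 0.0280% to 0.0352% and stromal markers at 0.0315% to 0.0322% of counts in the treated ADPKD libraries. Endothelial markers went from 0.120% to 0.147% of counts with vehicle to 0.0329% to 0.0417% with 666-15, with 10 of 10 lower. Intercalated cell markers went from 0.0374% to 0.0386% to 0.0815% to 0.0937%, with 8 of 12 higher and 0 lower, and podocyte markers from 0.0302% to 0.0318% to 0.0111% to 0.0135%, with 5 of 10 lower (3 without ADPKD inhibitor replicate 2 or ADPKD vehicle replicate 2). Principal cell markers went from 0.196% to 0.240% to 0.259% to 0.289%, and thick ascending limb markers overlapped (0.0343% to 0.0349% and 0.0337% to 0.0422%). The part of these cell types in the rise of the 6 genes was not tested.

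In WT cells the inhibitor was compared with vehicle in the same way. All 6 genes passed here too, against 25.5% of all genes tested: 5 were lower, against 11.6% of all genes tested, and Ocrl was higher, against 13.9%. Lrp2 fell from 1420 ± 7.2 to 496.2 ± 109 CPM (log2 fold change -1.52 ± 0.20, edgeR adjusted p = 5.81e-04), Cubn from 332.3 ± 42 to 126.1 ± 22 CPM (-1.40 ± 0.13, adjusted p = 9.00e-06) and Amn from 135.8 ± 6.1 to 65.4 ± 14.5 CPM (-1.05 ± 0.14, adjusted p = 1.49e-04). Clcn5 fell from 176.7 ± 16 to 118.0 ± 12 CPM (-0.58 ± 0.11, adjusted p = 0.00157). Dab2 was at 308.3 ± 35 against 430.9 ± 11 CPM (-0.48 ± 0.13, adjusted p = 0.0154), a call that ended without WT vehicle replicate 1 (adjusted p = 0.0622), without WT vehicle replicate 2 (adjusted p = 0.0839) or without WT inhibitor replicate 1 (adjusted p = 0.0977).

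Ocrl rose in WT cells from 17.9 ± 0.25 to 29.5 ± 1.1 CPM (log2 fold change 0.72 ± 0.13, edgeR adjusted p = 0.00135). Without WT inhibitor replicate 2, the only library with Xist, the log2 fold change of Ocrl was 0.68 (adjusted p = 0.00633) and that of Clcn5 -0.69 (adjusted p = 9.25e-04). Marker levels moved here too: the proximal tubule markers went from 2.07% to 2.39% of counts with vehicle to 0.864% to 0.899% with 666-15, with 18 of 24 lower, and principal cell markers from 0.151% to 0.195% to 0.701% to 0.711%, with 11 of 11 tested higher. Their part in the lower receptor levels was not tested.

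The difference between these responses was tested as the interaction of genotype and inhibitor. It passed for 4 of the 6 genes, all in the direction of a larger rise or smaller fall in ADPKD cells, against 13.6% of all genes tested in that direction and 26.6% in either. It was 3.62 ± 0.30 on the log2 scale for Lrp2 (edgeR adjusted p = 7.10e-05), 2.87 ± 0.22 for Cubn (adjusted p = 6.23e-06), 1.40 ± 0.19 for Dab2 (adjusted p = 2.12e-04) and 1.23 ± 0.15 for Clcn5 (adjusted p = 1.34e-04). Ocrl, higher with the inhibitor in both genotypes, did not pass (0.48 ± 0.18, adjusted p = 0.0718, and 0.0466 with a filter of 5 CPM). Amn did not pass (0.43 ± 0.25, adjusted p = 0.243), though removing the GC trend gave 1.21 (adjusted p = 0.00136) and leaving out WT inhibitor replicate 1 gave 0.69 (adjusted p = 0.0356). The comparisons of inhibitor with vehicle and of ADPKD with WT share the vehicle libraries.

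With inhibitor in both genotypes, 5 of the 6 genes were lower in ADPKD cells, against 24.5% of all genes tested, and Ocrl was higher (0.63 ± 0.13, edgeR adjusted p = 0.00146), against 21.8%. Amn had the lowest log2 fold change here (-4.35 ± 0.19, adjusted p = 3.94e-09), with 156 of the 17440 genes below it, followed by Cubn (-3.66 ± 0.15, adjusted p = 3.94e-09), Lrp2 (-3.51 ± 0.22, adjusted p = 2.91e-06) and Dab2 (-1.54 ± 0.13, adjusted p = 1.86e-06). Clcn5 was at 95.6 ± 4.6 against 118.0 ± 12 CPM (-0.30 ± 0.11, adjusted p = 0.0364), a call that ended in 5 of 8 fits with 1 library left out, the smallest difference being -0.19 without WT inhibitor replicate 2 (adjusted p = 0.223), and with DESeq2 (-0.29, adjusted p = 0.0683).

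Set against the proximal tubule markers of the same library, the 6 genes fell into distinct patterns. Cubn amounted to 1.28% to 1.64% of the summed CPM of the 24 markers in all 8 libraries, while its own level ranged from 3.32 to 362.3 CPM. Lrp2 amounted to 6.26% to 7.29% in WT cells with vehicle, 4.84% to 6.39% in WT cells with 666-15, 2.97% to 5.86% in ADPKD cells with vehicle and 5.14% to 7.60% in ADPKD cells with 666-15. The vehicle groups did not overlap, with both ADPKD libraries below both WT libraries, and every other pair of groups overlapped. Amn was at 0.582% to 0.717% in WT cells with vehicle, 1.82% to 2.35% in ADPKD cells with vehicle and 0.444% to 0.481% in ADPKD cells with 666-15. The 3 other genes stood higher against the marker sum in ADPKD than in WT cells. With vehicle that sum was 22600 and 19540 CPM in WT and 202.7 and 281.0 CPM in ADPKD cells. A gene that fell less than the sum, or did not fall, stands higher against it. The higher shares are therefore not higher levels: with vehicle Dab2 and Clcn5 were lower in ADPKD cells, and Ocrl did not pass. Dab2 went from 1.87% to 2.25% in WT to 22.8% to 23.7% in ADPKD cells with vehicle, Clcn5 from 0.731% to 0.963% to 22.4% to 29.3% and Ocrl from 0.0800% to 0.0907% to 6.72% to 10.2%. These shares are a description without a test, and the marker sum itself was led by different genes in the 2 genotypes: by Slc34a1 in WT cells and by Pck1 (58.4 CPM) in ADPKD cells with vehicle.

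**Figure D3:**
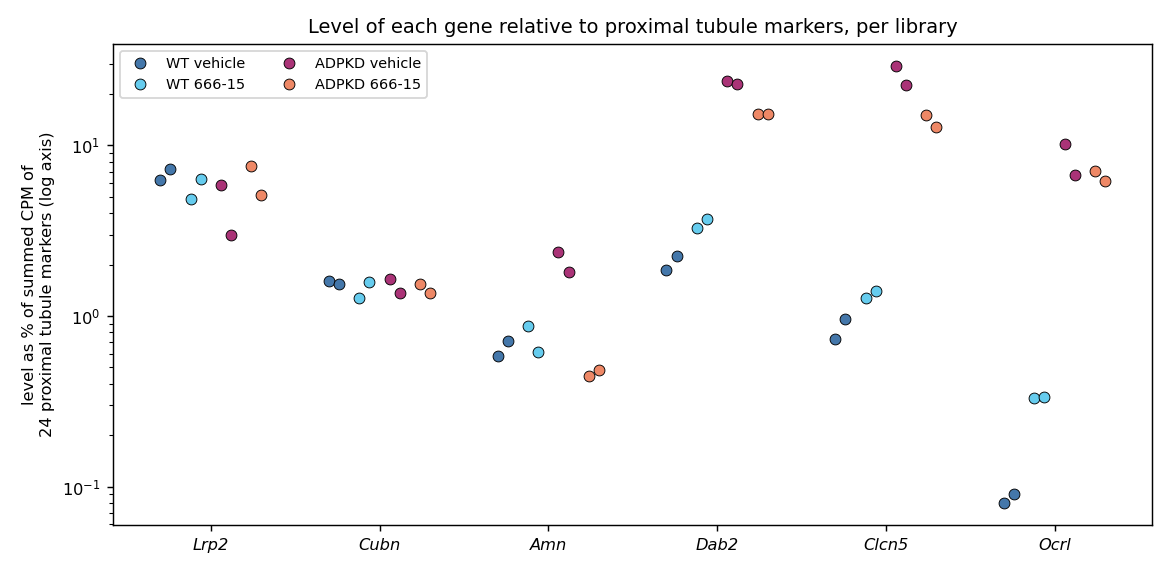
Level of each gene as a percentage of the summed CPM of 24 proximal tubule markers (log axis), 1 point per library, colored by group. Cubn stays between 1.28% and 1.64% in all 8 libraries, whereas Dab2, Clcn5 and Ocrl lie higher in all 4 ADPKD than in all 4 WT libraries. The marker sum itself is lower in all 4 ADPKD than in all 4 WT libraries.

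Ratios of RNA counts between the genes of the receptor complex were taken within each library. They do not measure the balance of the proteins. There were 3.91 to 4.72 counts of Lrp2 for each of Cubn in WT cells with vehicle, 3.79 to 4.04 in WT cells with 666-15, 2.17 to 3.58 in ADPKD cells with vehicle and 3.76 to 4.96 in ADPKD cells with 666-15. Cubn had 2.16 to 2.76 counts for each of Amn in WT cells with vehicle and 1.46 to 2.57 in WT cells with 666-15. In ADPKD cells it had 0.696 to 0.755 with vehicle and 2.84 to 3.44 with 666-15. Vehicle-treated ADPKD cells were thus the group in which Amn outnumbered Cubn in counts, before any correction for length. These ratios were also not corrected for the GC trend, whose removal turned the direction of Amn with 666-15 in ADPKD cells. Per length of the longest transcript Amn stood above Cubn in every group. In WT cells it was at 79.8 against 29.5 RPKM with vehicle and 38.5 against 11.2 with 666-15. In ADPKD cells it was at 2.90 against 0.319 RPKM with vehicle and 1.88 against 0.885 with 666-15.

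Across the 8 libraries, which share their group structure, log2 CPM of Lrp2 correlated with that of Cubn at 0.994, Dab2 at 0.988, Clcn5 at 0.958, Amn at 0.928 and Ocrl at -0.219. Among 10793 other named genes with a mean of at least 5 CPM, the closest to Lrp2 were Thnsl2 (0.998), Acsm1 (0.998) and Acsm2 (0.998). Close to Cubn were Tmem174 (0.999) and Gcdh (0.999), the closest to Amn were Ildr2 (0.998), Eci1 (0.997) and C2cd2l (0.997), and those to Dab2 were Fmo1 (0.999), Aspa (0.998) and Acaa2 (0.998). Clcn5 was closest to Tpp1 (0.995), a lysosomal peptidase, Slc25a36 (0.992) and Itgb8 (0.992), and Ocrl to Smarca1 (0.996), Ros1 (0.994) and Reps2 (0.993), whose product is an endocytic EH-domain protein.

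The rest of the endocytic route was read from lists of its parts. Between the genotypes with vehicle the medians of its general machinery lay near that of all genes tested. Of 18 genes of the clathrin coat and scission 7 were higher and 5 lower (median log2 fold change 0.094), of 18 endosomal sorting genes 6 were higher and 6 lower (-0.022), and of 16 general subunits of the vacuolar proton pump 4 were higher and 5 lower (-0.025). Without ADPKD vehicle replicate 1 or WT vehicle replicate 1, the pump had 2 higher and 3 lower and the clathrin list 3 lower; the pump also had 3 lower without WT vehicle replicate 2, and the median of the sorting genes was 0.048 without ADPKD vehicle replicate 1. Among 9 chaperone, adaptor and motor genes of megalin, 4 were higher and 3 lower (0.13). Lrpap1, the chaperone that keeps megalin from binding ligand too early, fell by 2.81 on the log2 scale (SE 0.11, edgeR adjusted p = 3.72e-10), from 334.2 and 322.0 to 46.0 and 47.5 CPM. Gipc1, a PDZ protein that binds the megalin tail, rose by 0.99 ± 0.12 (edgeR adjusted p = 1.41e-05).

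Of 13 tested genes that bind or handle filtered ligands, 9 were lower and 2 higher in ADPKD cells with vehicle (median -2.15). The folate receptor Folr1 was at -5.02 ± 0.13 (edgeR adjusted p = 2.21e-11), Tcn2, the carrier of vitamin B12, at -3.82 ± 0.12, and Fcgrt, the neonatal Fc receptor that salvages albumin, at -2.31 ± 0.15. Of 18 lysosomal genes 12 were lower and 4 higher (median -0.60). Lgmn, a lysosomal protease, was lower (-1.88 ± 0.095, adjusted p = 4.36e-09), and Ctsd, cathepsin D, was higher, at 2083 and 1926 against 381.1 and 401.8 CPM (2.36 ± 0.11, adjusted p = 1.55e-09).

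Of the 12 tested members of the LDL receptor family other than Lrp2, 4 were higher and 6 lower in ADPKD cells with vehicle (median -0.24), and the number lower was 3 without ADPKD vehicle replicate 1. Lrp8, the apolipoprotein E receptor 2, rose from 18.3 and 18.3 to 142.7 and 113.1 CPM (2.81 ± 0.15, edgeR adjusted p = 5.35e-09), and Lrp1 was at 1.32 ± 0.20 (adjusted p = 3.02e-04). Among 5 relatives and partners of Clcn5, 2 were higher and 1 lower (0 lower without any one of ADPKD vehicle replicate 2 and the WT vehicle libraries, 2 lower without ADPKD vehicle replicate 1): Clcn7, the lysosomal exchanger, was at 1.41 ± 0.10 (adjusted p = 1.36e-07) and its subunit Ostm1 at 0.88 ± 0.14, while Clcn3 was at -0.37 ± 0.13 (adjusted p = 0.0247). In a list of 10 other genes under the name of inositol 5-phosphatases, 2 were higher and 3 lower. The list counts Inpp5f, lower here (-1.05 ± 0.11), which bears the name but is a phosphoinositide phosphatase of another class. Inpp5b, the closest relative of Ocrl, fell by 1.39 (SE 0.16, adjusted p = 6.56e-06) while Ocrl did not pass, and Inpp5j fell by 3.57 (SE 0.20, adjusted p = 8.86e-09).

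**Figure D4:**
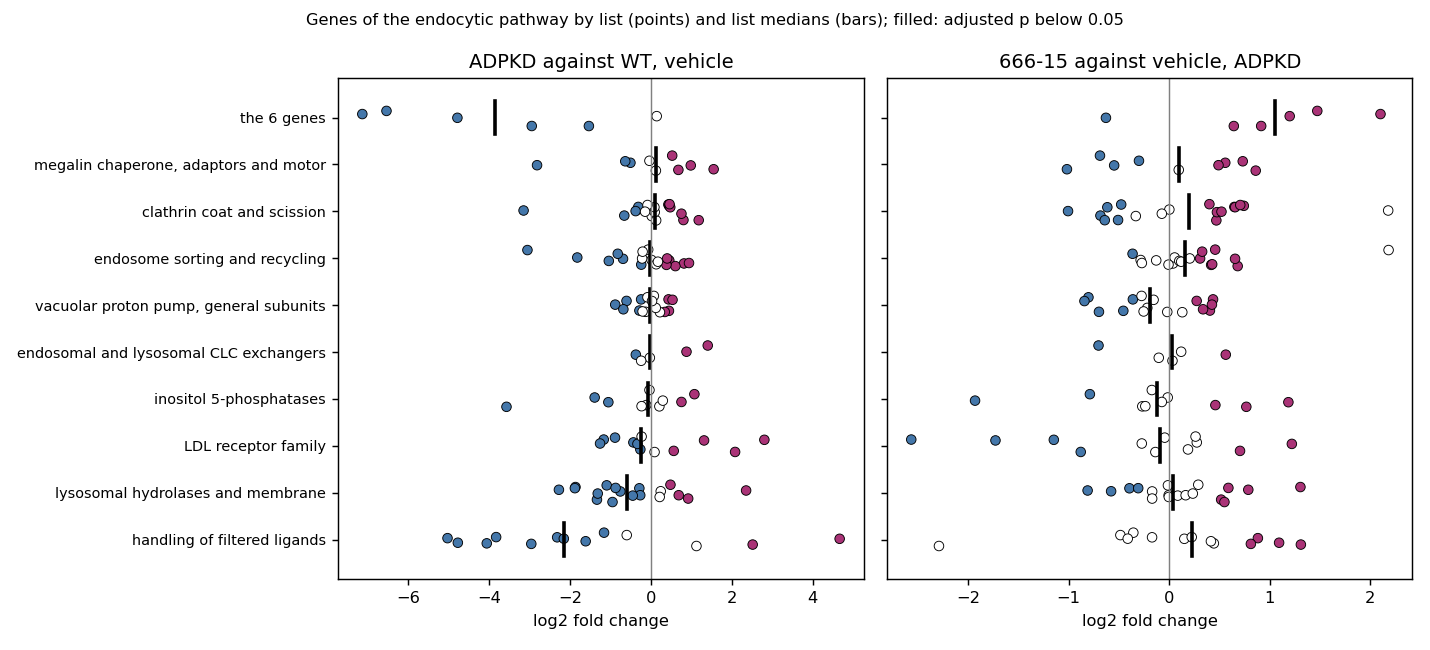
Log2 fold change of each tested gene (point; filled where the adjusted p was below 0.05, blue lower and purple higher) and the median (bar) of the 6 genes and 9 lists of the endocytic route, for ADPKD against WT with vehicle (left) and 666-15 against vehicle in ADPKD cells (right). The median of the 6 genes lies at -3.86 on the left and 1.06 on the right, and that of the ligand-handling genes at -2.15 and 0.22 (-0.034 without ADPKD inhibitor replicate 2).

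With the inhibitor in ADPKD cells, the median of the 6 genes was 1.06, against 0.017 over all genes tested. Of the 9 megalin chaperone, adaptor and motor genes 4 were higher and 4 lower. Appl1, an early endosomal adaptor that binds OCRL, rose from 86.1 and 92.3 to 164.3 and 160.0 CPM (0.86 ± 0.10, edgeR adjusted p = 3.55e-05), and Myo6, the motor that pulls endocytic vesicles inward, was at 0.73 ± 0.096 (adjusted p = 8.05e-05). Of 18 endosomal sorting genes 7 were higher and 1 lower, with 4 higher without ADPKD inhibitor replicate 1 or without ADPKD vehicle replicate 1. Of the clathrin genes 8 were higher and 6 lower, with the light chain Cltb at -1.0 ± 0.10 (adjusted p = 1.49e-05) and the AP-2 subunit Ap2m1 at 0.65 ± 0.090 (adjusted p = 1.18e-04).

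Of the ligand-handling genes 4 of 13 were higher and 0 lower in treated ADPKD cells, with a median of 0.22 that turned to -0.034 without ADPKD inhibitor replicate 2. There was 1 lower without that library or without ADPKD vehicle replicate 1. Folr1 was at 0.88 ± 0.13 (edgeR adjusted p = 1.59e-04) and Selenop, which carries selenium and is taken up by megalin, at 0.81 ± 0.12 (adjusted p = 1.54e-04). Lrp8 and Lrp1 fell, by 1.15 (SE 0.14, adjusted p = 4.00e-05) and 1.73 (SE 0.20, adjusted p = 1.48e-04), and the sorting receptor Sorl1 rose by 1.22 ± 0.094 (adjusted p = 2.04e-06). Of the remaining lists, 5 vacuolar pump subunits were higher and 5 lower (2 higher without ADPKD vehicle replicate 1, and 2 higher and 3 lower without ADPKD inhibitor replicate 2). Of the lysosomal genes 5 were higher and 4 lower (2 lower without ADPKD inhibitor replicate 1). Of the LDL receptor family 2 were higher and 4 lower (5 higher without WT inhibitor replicate 2), and of the 5-phosphatases 3 were higher and 2 lower (1 and 1 without ADPKD vehicle replicate 2, and 1 lower without ADPKD inhibitor replicate 2). Inpp5f, a phosphoinositide phosphatase of endosomes that this list of 5-phosphatases counts by name only, rose by 1.19 ± 0.11 (edgeR adjusted p = 6.01e-06).

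With the inhibitor in WT cells, the median of the 6 genes was -0.82. Of the ligand-handling genes 6 were lower and 2 higher, among them Tcn2 (-1.04 ± 0.11, edgeR adjusted p = 1.90e-05) and Folr1 (-0.98 ± 0.10, adjusted p = 2.20e-05). Lrpap1 fell with the receptors, by 0.73 (SE 0.10, adjusted p = 1.56e-04). Of the 16 vacuolar pump subunits 7 were higher and 1 lower, with 4 higher when either one of the WT vehicle libraries was left out, led by Atp6v0d1 (1.13 ± 0.094, adjusted p = 3.30e-06), in cells whose intercalated cell markers went from 0.120% to 0.128% of counts with vehicle to 0.256% to 0.314% with 666-15. The part of that cell type in the pump genes was not tested.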

How the data were processed

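RNA from 8 libraries in 4 groups of 2 was compared. The authors deposited raw read counts per gene symbol; per the submitters' processing notes the tools were HISAT2 2.1.0, featureCounts 1.6.0 and DESeq2 with the build mm10, while the gene annotation, the use of strand and the treatment of multiply mapped reads are not given in the sources used here. In total the table held 0 counts in all 37 mitochondrially encoded rows. The 4 inhibitor columns bear the sample titles; the 4 vehicle columns give only genotype and replicate number, and were assigned to the vehicle samples because the inhibitor samples have columns of their own.

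From these counts, edgeR 4.0.16 (R 4.3.3) was run on all 8 libraries with TMM scaling, filterByExpr (minimum count 10, minimum total 15) and a robust quasi-likelihood fit with 1 mean per group (4 residual degrees of freedom, common biological coefficient of variation 0.138). There were 6 comparisons, each adjusted by Benjamini-Hochberg over the 17440 genes tested, with a threshold of 0.05. The SE is the log2 fold change divided by the root of its F statistic. The script was tested on simulated data. RPKM used the longest GENCODE M21 transcript; 96.9% of symbols matched. Likeness is Pearson's r of log2 CPM (prior count 2).

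The members and the 9 pathway and 8 marker lists were chosen with earlier results of these data known. The text names the 6 genes, up to 4 genes of each pathway list with the smallest p in a comparison, up to 3 markers of each list with the highest mean CPM and the 3 genes most like each member. Some genes that this rule names are not reported here. Alternatives were RLE scaling, other filters, a fit that was not robust, DESeq2 1.42.0, a replicate block, the 2 groups alone, removal of GC or length trends (lowess span 0.3) and leaving out each library. Same-numbered libraries did not deviate together (correlations of -0.0371 to 0.0806), which does not exclude a pairing. Figures were drawn with matplotlib 3.10.9.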

Additional observations from a re-analysis of the deposited data

Results flagged for a closer look

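The response to 666-15 differed between ADPKD and WT cells, by the interaction test, for 4 of the 6 genes, against 26.6% of all genes tested. All 4 were in the direction of a larger rise or smaller fall in ADPKD cells, as were 13.6% of all genes tested. The effect in ADPKD minus that in WT cells was 3.62 ± 0.30 (SE, log2) for Lrp2, with an edgeR adjusted p of 7.10e-05, and 2.87 ± 0.22 for Cubn (6.23e-06). It was 1.40 ± 0.19 for Dab2 (edgeR adjusted p = 2.12e-04) and 1.23 ± 0.15 for Clcn5 (1.34e-04). Both ADPKD libraries with 666-15 lay above both with vehicle, and both WT libraries with 666-15 lay below both with vehicle, for each of these 4 genes. The share of all genes tested whose libraries separated in this way was not computed, so this separation is a description only. Proximal tubule markers showed the same difference in 18 of 24 genes and the opposite one in 0, and their part in it was not tested.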

How the results depend on the processing

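Of 606 recomputed fold changes of the 6 genes, 586 kept their direction and their side of the threshold, 16 lost and 3 gained a call and 1 reversed. The reversal was Amn with 666-15 in ADPKD cells, at 0.15 with the GC trend removed; the cause was not tested. Its call was also lost with the length trend removed (-0.48) and with the 2 groups alone (-0.66). Leaving out 1 library moved the number of genes called with 666-15 from 7224 to between 4783 and 7817 in ADPKD cells (lowest without ADPKD inhibitor replicate 2). In WT cells it moved from 4448 to between 2402 and 4707 (2402 without WT vehicle replicate 1, 2887 without WT vehicle replicate 2), and for the interaction from 4636 to between 3037 and 5075 (3037 without WT vehicle replicate 1, 3073 without ADPKD inhibitor replicate 2). The number of the 6 genes called stayed within 1.5 times the reported count in all 101 recomputations. With the replicate number as a block, 9782, 7198, 4458, 8014, 4599 and 9547 genes were called, in the order ADPKD against WT with vehicle, 666-15 in ADPKD, 666-15 in WT, ADPKD against WT with 666-15, interaction, and treated ADPKD against vehicle-treated WT cells. Whether the numbers pair the libraries cannot be decided from 2 libraries per group. The block left the number of the 6 genes called at 5, 6, 6, 6, 4 and 6. In WT cells a filter of 5 CPM turned the split of higher and lower calls from 2420 and 2028 to 1832 and 2605. In ADPKD libraries the values of Cubn and Amn rest on 45 to 155 counts per library.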
